A study of Mus musculus with 24 samples.

Results

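The genes described here are 10 genes of mammary epithelium: the milk genes Csn3 and Wap, the luminal keratins Krt8, Krt18 and Krt19, the basal keratins Krt5 and Krt14, and the epithelial genes Epcam, Elf5 and Cldn3. They were chosen by symbol, as the probe sets annotated with 1 of these symbols and no other, which gave 1 probe set for each of the 10 members among 19494 genes measured. The list was drawn up with earlier results of these data known, so its counts beside those of all genes are descriptive. The subcutaneous and the visceral fat of 12 mice were each profiled on an Affymetrix array, 24 arrays in all. The labels give the aP2-Tagln2 transgene to 6 mice (females 60, 135 and 173, males 106, 130 and 158) and call 6 wild-type (females 140, 169 and 170, males 159, 161 and 162), which gave 8 groups of 3 arrays. The labels state no age, strain, reproductive state or treatment, and they call the visceral depot epididymal in females as well as in males. The source labels of subcutaneous samples name visceral and inguinal depots at once, and the tissue labels were followed. The aP2 promoter, that of the adipocyte gene Fabp4, is active mainly in fat cells. All values are log2 intensities, and a difference is a difference of log2 values.

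The mammary gland of the mouse grows within subcutaneous fat, and the inguinal fat pad of a female holds mammary ducts. A duct has an inner layer of luminal cells, which carry simple keratins and in lactation secrete milk, and an outer layer of basal, contractile cells, which carry the keratins of stratified epithelium. Simple keratins are also made by the mesothelium that lines visceral fat and by other glandular epithelia, and basal keratins by the skin. The labelled tissue was checked with the fat cell hormone gene Adipoq, which lay between 11.47 and 12.45 in the 24 arrays. The arrays measure RNA from whole tissue, so fewer cells of a type and less RNA per cell cannot be told apart.

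Both arrays of mouse 60, an aP2-Tagln2 female, went against their tissue labels in marker genes of other cell types. Upk3b, a uroplakin gene of mesothelium, was at 7.59 in its array labelled subcutaneous and at 4.39 in its array labelled visceral. In the other 5 females Upk3b lay between 4.26 and 4.72 in subcutaneous tissue and between 8.91 and 9.55 in visceral tissue. The mean over the 10 measured mesothelial genes ran the same way in mouse 60. It was 6.23 under the subcutaneous label and 5.06 under the visceral one. In the other 5 females this mean lay between 4.86 and 4.996 in subcutaneous tissue and between 7.30 and 7.61 in visceral tissue. Both arrays were kept under their labels, and the comparisons they enter are given with and without the mouse. The labels give no batch. The p-values measure the spread between arrays of the same group, pooled over the groups of a fit. Where a fit held both depots, the arrays of a mouse were treated as separate unless a block is named.

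Csn3 encodes kappa-casein, the milk protein that keeps casein micelles in suspension. In female subcutaneous tissue it was at 8.89, 9.01 and 7.80 in wild-type mice 140, 169 and 170, and at 7.65 and 9.41 in aP2-Tagln2 mice 135 and 173. In mouse 60 Csn3 was at 3.05 under the subcutaneous label and at 9.44 under the visceral one. All other arrays were lower. Csn3 lay between 2.53 and 3.40 in the visceral tissue of the other 5 females, between 3.41 and 5.41 in male subcutaneous tissue and between 2.74 and 3.36 in male visceral tissue. The highest male value, 5.41 in the subcutaneous tissue of wild-type mouse 162, lay below the lowest of those 5 female subcutaneous arrays. In wild-type females Csn3 averaged 8.57 ± 0.66 (SD, n = 3) in subcutaneous and 3.03 ± 0.43 (n = 3) in visceral tissue, a difference of 5.54 (SE 0.42, adjusted p = 2.75e-06). Tests were made with limma across all genes that passed a filter on low values, with a threshold of 0.05 on the p-value adjusted by Benjamini and Hochberg. The lower groups of Csn3 lay under the level of that filter, between 4.94 and 5.31 by array, and the background of each probe set was not measured, so differences are given and not folds.

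Wap, the whey acidic protein gene of the lactating gland, did not follow Csn3. Its 24 values lay between 5.60 and 6.64, and no group stood apart: the group means ran from 5.77 ± 0.28 (SD, n = 3) in aP2-Tagln2 male visceral tissue to 6.26 ± 0.09 (n = 3) in wild-type male subcutaneous tissue. In wild-type females the difference between depots was 0.17 (SE 0.19, adjusted p = 0.584). The list of other milk genes held 9 genes, all measured, of which 3 passed the filter in the fit of the wild-type mice. Wfdc18, a secreted whey-type protein gene, was higher in subcutaneous than in visceral tissue of wild-type females by 3.01 (SE 0.36, adjusted p = 0.000133). Ltf, which encodes the iron-binding milk protein lactoferrin, was higher there by 2.36 (SE 0.30, adjusted p = 0.000217). Btn1a1, a gene of the milk fat globule membrane, was tested and did not pass. The genes named next were chosen outside the rule for naming genes, with their values seen. The casein genes Csn1s1, Csn1s2a, Csn1s2b and Csn2 and the lactalbumin gene Lalba were under the filter in that fit. Csn2, the gene of beta-casein, lay between 4.01 and 4.62 in the 5 female subcutaneous arrays other than mouse 60 and between 3.92 and 4.94 in the 6 male ones, so the sexes overlapped in it.

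**Figure D1:**
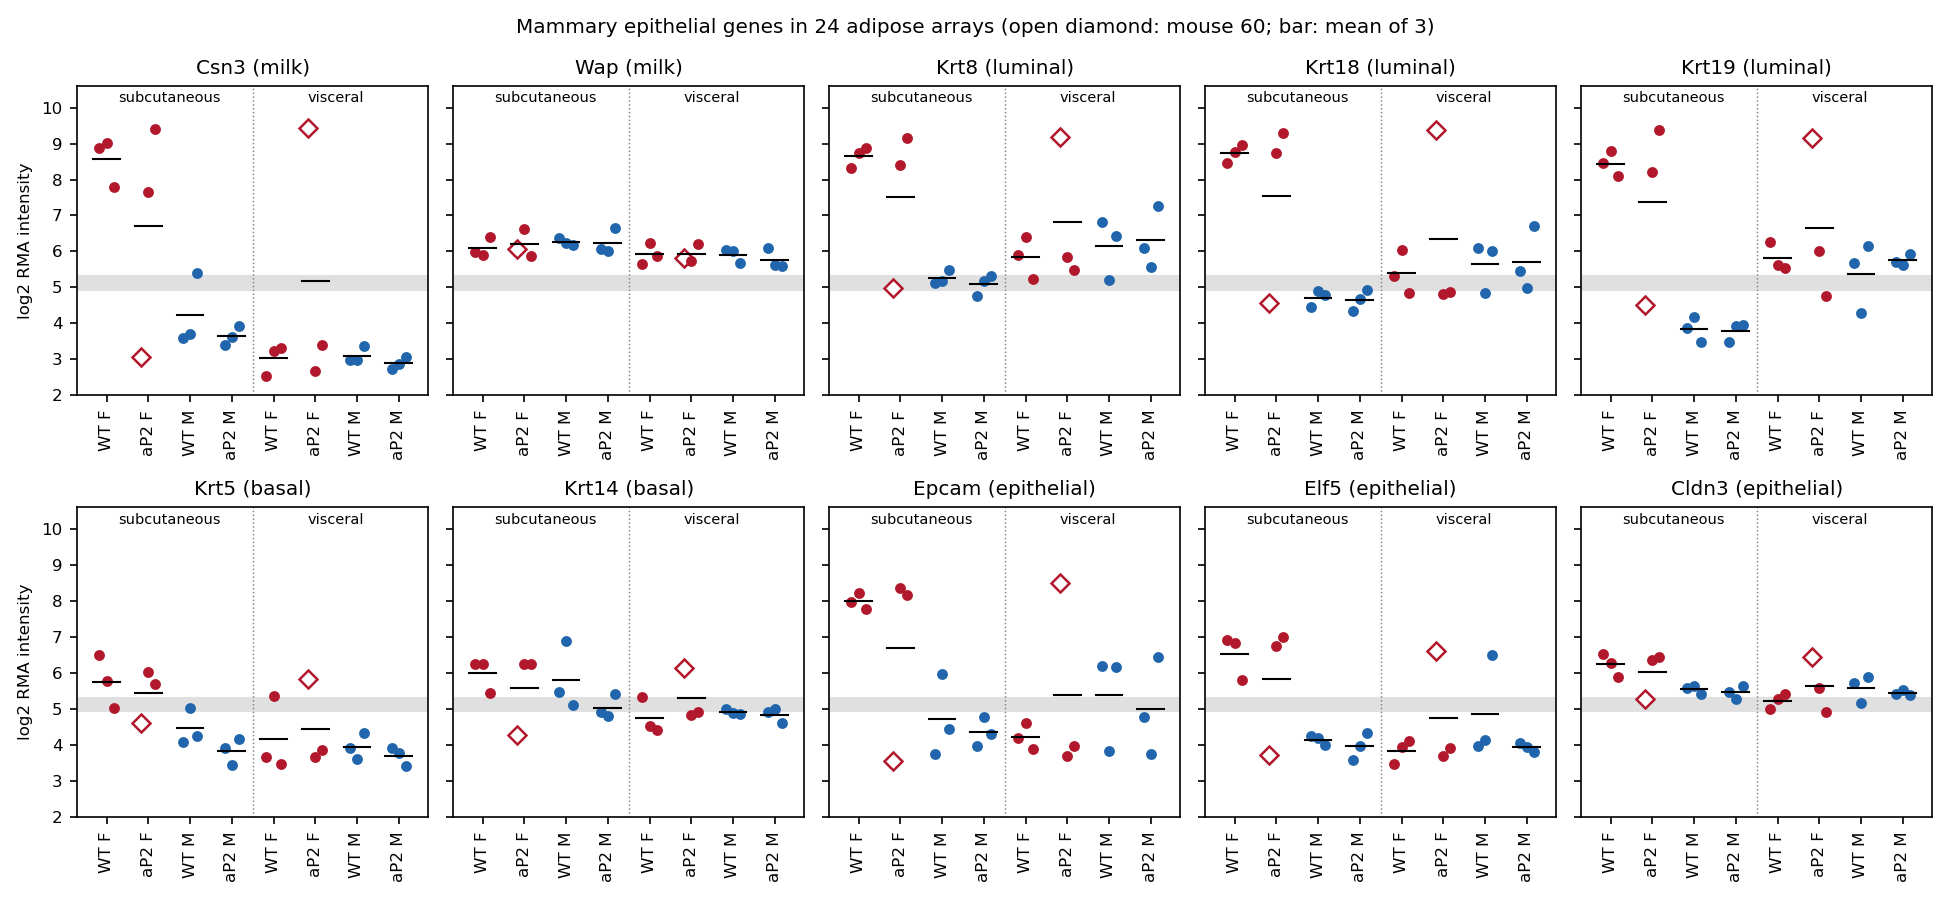
Log2 intensity (RMA) of each of the 10 genes, 1 panel per gene, in the 8 groups of genotype, sex and depot. Points are arrays, open diamonds are mouse 60, short bars are the mean of 3 arrays, and the grey band spans the filter level of 4.94 to 5.31. Csn3, the simple keratins, Epcam and Elf5 were high in the 5 female subcutaneous arrays other than mouse 60 and in the array of mouse 60 labelled visceral, while Wap was level across groups.

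The luminal keratins Krt8 and Krt18 encode the type II and type I chains that pair into the filaments of simple epithelium. The pair lies side by side on chromosome 15 in the RefSeq annotation of GRCm38.p6, on opposite strands, with 2 predicted genes and 0 protein-coding genes between. Their promoter windows, of 300 bases from 250 before to 50 after the gene start, are shown because their values moved together in the arrays. Capitals mark TATAAA on either strand in Krt8 and GCCNNNGGC in Krt18. The Krt8 window is chr15:102004293-102004592 on the minus strand and the Krt18 window is chr15:102027966-102028265 on the plus strand, each printed 5′ to 3′.
Krt8: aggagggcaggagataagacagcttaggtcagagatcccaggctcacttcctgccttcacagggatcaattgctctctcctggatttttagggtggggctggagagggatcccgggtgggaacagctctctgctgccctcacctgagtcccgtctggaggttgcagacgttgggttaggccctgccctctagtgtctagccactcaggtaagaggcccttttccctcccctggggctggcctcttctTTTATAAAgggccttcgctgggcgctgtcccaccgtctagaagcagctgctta
Krt18: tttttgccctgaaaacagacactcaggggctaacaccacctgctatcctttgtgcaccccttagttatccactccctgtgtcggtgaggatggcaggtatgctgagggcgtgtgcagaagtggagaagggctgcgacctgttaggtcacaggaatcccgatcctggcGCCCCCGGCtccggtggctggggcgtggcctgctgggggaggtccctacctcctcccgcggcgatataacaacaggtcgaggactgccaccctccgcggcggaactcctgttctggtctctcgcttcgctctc
Both strands were searched for TATAAA, the letters of a TATA box, for GCCNNNGGC, those bound by AP-2 factors, and for TTCNNNGAA, those bound by STAT factors. RefSeq windows were at hand for 8 of the 10 members, with Csn3 and Krt19 the members without one. TATAAA was found in Krt8 alone of the members, at base 250 of the window and, on the other strand, at base 248, and in 13.6% of 32851 promoter windows of the same length. GCCNNNGGC was found in Krt18 at base 168 and in the tight-junction gene Cldn3 at base 274, against 16.6% of all windows, and TTCNNNGAA, found in 8.3% of them, was in none of the members' windows. A match describes the letters of the window and not a bound site.

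Krt8 was at 8.33, 8.74 and 8.87 in subcutaneous tissue of wild-type females and at 8.41 and 9.16 in aP2-Tagln2 females 135 and 173. Male subcutaneous tissue lay between 4.75 and 5.47, with no overlap. In mouse 60 Krt8 was at 4.98 under the subcutaneous label and 9.17 under the visceral one. Unlike Csn3, Krt8 had a middle range in visceral tissue, at 5.24 to 6.40 in the other 5 females and 5.21 to 7.26 in males. In wild-type females it was higher in subcutaneous than in visceral tissue by 2.80 (SE 0.35, adjusted p = 0.000197).

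Krt18 was at 8.45, 8.76 and 8.96 in subcutaneous tissue of wild-type females and at 8.74 and 9.28 in aP2-Tagln2 females 135 and 173. It lay between 4.33 and 4.92 in male subcutaneous tissue, between 4.81 and 6.05 in the visceral tissue of the other 5 females and between 4.84 and 6.70 in that of males. The array of mouse 60 labelled visceral was at 9.38, the highest of the 24. The depot difference in wild-type females was 3.32 (SE 0.33, adjusted p = 2.26e-05). Over the 24 arrays, which share groups and mice, the Pearson correlation of Krt8 with Krt18 was 0.992, and it was 0.991 over the 22 arrays without mouse 60.

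Krt19, which encodes the smallest type I keratin, a marker of luminal cells, was at 8.45, 8.80 and 8.09 in wild-type female subcutaneous tissue and at 8.22 and 9.39 in aP2-Tagln2 females 135 and 173. Male subcutaneous tissue lay between 3.48 and 4.18, the lowest values of the gene. Visceral tissue lay above these, at 4.77 to 6.27 in the other 5 females and 4.29 to 6.16 in males. Krt19 was higher in subcutaneous than in visceral tissue of wild-type females by 2.64 (SE 0.38, adjusted p = 0.000495). In wild-type males it was lower in subcutaneous tissue, by a log2 difference of -1.54 (SE 0.38, adjusted p = 0.029). That call was lost without mouse 159 (adjusted p = 0.19) and without mouse 162 (adjusted p = 0.175).

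Of 14 other luminal and general epithelial genes, all measured, 13 passed the filter in wild-type mice, and 8 were higher and 0 lower in female subcutaneous than in female visceral tissue, where 14.1% of all 12944 genes tested were called in either direction. They included Cdh1, the gene of E-cadherin, with a difference of 1.98 (SE 0.47, adjusted p = 0.0143), and Grhl2, a transcription factor gene of epithelia, with 1.88 (adjusted p = 0.00152). Esrp1, an epithelial splicing regulator, differed by 1.86 (adjusted p = 0.00391) and St14, the gene of the protease matriptase, by 1.70 (adjusted p = 0.00456). Of 8 hormone-sensing luminal genes 6 were measured and 5 tested, and 2 were higher. Foxa1, a transcription factor gene of hormone-receptor cells, was higher by 3.08 (SE 0.39, adjusted p = 0.000196) and Pgr, the progesterone receptor gene, by 1.63 (SE 0.25, adjusted p = 0.00069). In aP2-Tagln2 females the depot difference of Pgr was -1.14 with mouse 60 and -0.14 without it. That of Foxa1 was 1.30 and 3.95. Prlr and Areg were not analysed here. The mesothelial list moved the other way between the depots of wild-type females, with 0 higher and 10 lower of 10 tested, and Upk3b at -5.15. In wild-type males, where the mesothelial list had 0 higher and 9 lower, 0 of the 13 luminal genes were higher and 1 was lower, a share near the 11.0% of all genes called there. The part of mesothelial RNA in the visceral values of the simple keratins was not tested.

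The basal keratins showed smaller differences than the luminal ones. Krt5, the type II keratin of basal cells, was at 6.50, 5.77 and 5.01 in subcutaneous tissue of wild-type females and at 6.03 and 5.69 in aP2-Tagln2 females 135 and 173. It lay between 3.43 and 5.02 in male subcutaneous tissue, so that wild-type female 170, at 5.01, overlapped with wild-type male 161, at 5.02. Visceral values ran from 3.47 to 5.35 in the other 5 females, the highest in mouse 169, and from 3.42 to 4.32 in males. In wild-type females Krt5 was higher in subcutaneous tissue by 1.60 (SE 0.46, adjusted p = 0.0322).

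Krt14, the type I partner of Krt5, was at 6.26, 6.24 and 5.46 in subcutaneous tissue of wild-type females and at 6.25 and 6.24 in aP2-Tagln2 females 135 and 173. The highest of the 24 arrays was a male one, the subcutaneous tissue of wild-type mouse 161 at 6.88, and the other male subcutaneous arrays lay between 4.80 and 5.46. Visceral tissue lay between 4.43 and 5.32 in the other 5 females and between 4.61 and 5.01 in males. The depot difference in wild-type females was 1.23 (SE 0.38, adjusted p = 0.0468). It was the call nearest the threshold among the members and was lost in 12 of 16 other settings, among them without the filter (adjusted p = 0.0597) and with the mouse as a block in the same samples (adjusted p = 0.0509).

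Of 10 other basal genes, all measured, 8 were tested in wild-type females. Dsc3, a desmosomal cadherin gene, was higher in subcutaneous tissue by 1.92 (adjusted p = 0.00222) and Col17a1, a hemidesmosome collagen gene, by 1.04 (adjusted p = 0.00186). Oxtr, the oxytocin receptor gene of contractile mammary cells, was lower, at -1.40 (adjusted p = 0.016). Contractile genes of smooth muscle were lower in the same comparison, with 0 higher and 7 lower of 8 tested. Of the 14 epidermal and hair follicle genes 13 were measured and 5 tested, and 0 were called with limma. The epidermal genes were not level across arrays, however. Krt10, a keratin of differentiated epidermis, was at 8.98 in the subcutaneous tissue of wild-type female 140 and at most 5.51 in the other arrays. The mean over the epidermal list was 5.61 in that array and between 4.38 and 4.99 in the other subcutaneous arrays. Krt10 was named after its values were seen, and the part of skin RNA in the basal keratins of mouse 140 was not tested.

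**Figure D2:**
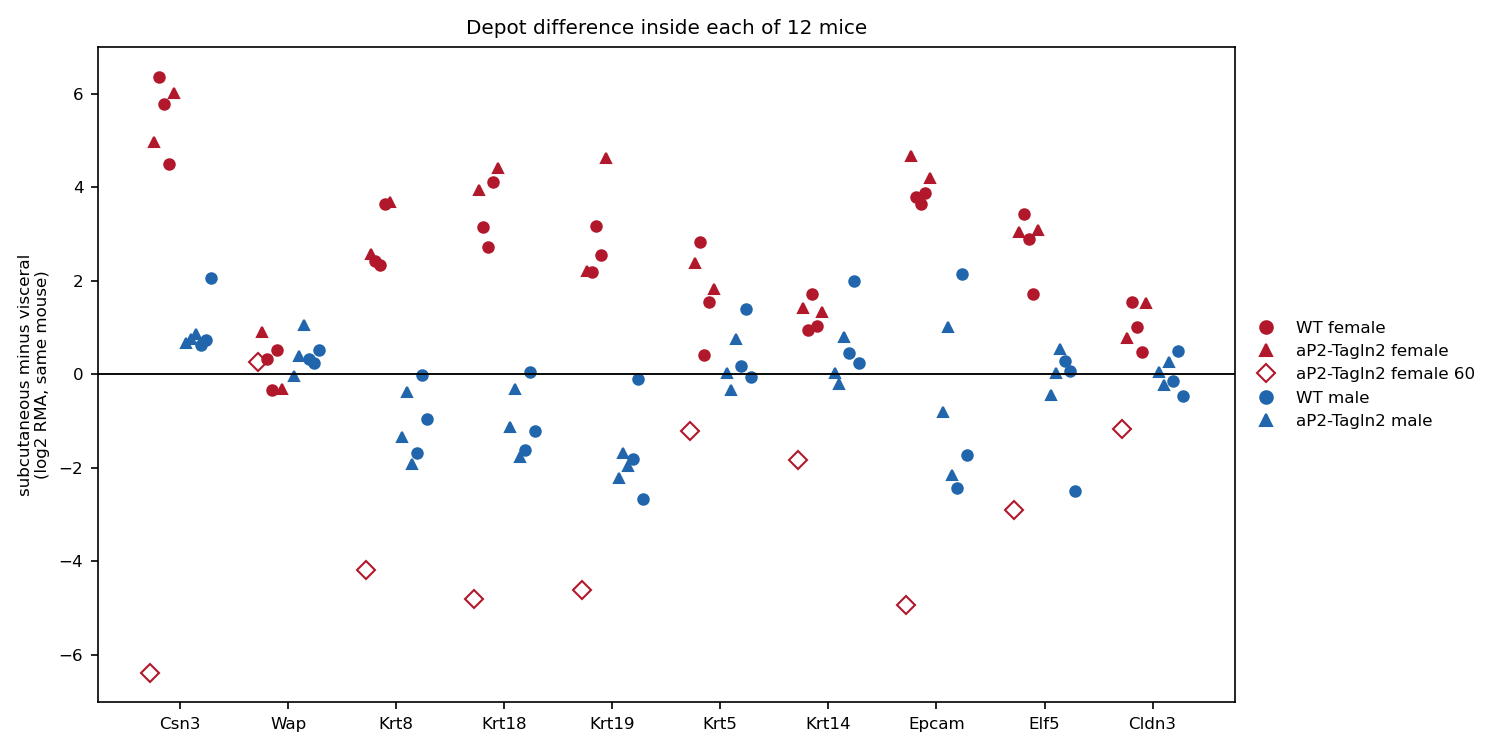
Subcutaneous minus visceral log2 difference within each of the 12 mice for the 10 genes. Circles are wild-type, triangles aP2-Tagln2 and the diamond mouse 60, with females in red and males in blue. For Csn3 the 5 other females lay between 4.50 and 6.36, the males between 0.63 and 2.06 and mouse 60 at -6.39.

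Within mice the simple keratins had opposite signs in the sexes, while the basal keratins did not. Krt18 was higher in subcutaneous than in visceral tissue by 2.71 to 4.42 in the 5 females other than mouse 60, and in the 6 males the difference ran from -1.78 to 0.06, with mouse 161 the one above 0. Krt19 ran from 2.18 to 4.62 in those females and from -2.68 to -0.11 in males. Krt5 ran from 0.42 to 2.84 in females and from -0.34 to 1.40 in males, and Krt14 from 0.94 to 1.71 and from -0.21 to 1.99. The sexes thus overlapped in Krt5 and Krt14 and did not in Krt18 and Krt19, and in both basal keratins the highest male was mouse 161.

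Epcam, which encodes an adhesion molecule of epithelial cells, was at 7.97, 8.23 and 7.78 in subcutaneous tissue of wild-type females and at 8.36 and 8.17 in aP2-Tagln2 females 135 and 173. It lay between 3.68 and 4.60 in the visceral tissue of those females. The depots did not overlap, and the difference in wild-type females was 3.77 (SE 0.58, adjusted p = 0.00081). Males were spread more widely, from 3.76 to 5.96 in subcutaneous and from 3.75 to 6.46 in visceral tissue.

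Elf5, the transcription factor gene of alveolar progenitor cells, was at 6.91, 6.84 and 5.82 in subcutaneous tissue of wild-type females and at 6.74 and 6.99 in aP2-Tagln2 females 135 and 173. All other arrays lay at or under 4.34, apart from the array of mouse 60 labelled visceral, at 6.62, and the visceral tissue of wild-type male 162, at 6.50. The depot difference in wild-type females was 2.68 (SE 0.51, adjusted p = 0.00378). Cldn3, a tight-junction gene, differed least among the called members, at 6.53, 6.29 and 5.89 in wild-type female subcutaneous tissue and at most 5.42 in the visceral tissue of the same mice. Its difference there was 1.01 (SE 0.21, adjusted p = 0.00664).

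In wild-type females, then, 9 of the 10 members were higher in subcutaneous than in visceral tissue, against 1824 of 12944 genes called in either direction (14.1%), 821 of them higher and 1003 lower. The median difference over the 10 members was 2.66, and over all genes it was -0.01. Csn3, Krt5 and Elf5 lay above the filter level in 7, 6 and 7 of the 24 arrays, nearly all of them the arrays where they were high, so they were tested through those arrays. Without any filter 8 of the 10 members were called, against 1656 of 19494 genes (8.49%). Leaving out wild-type female 140 left 5 members called, Csn3, Krt8, Krt18, Krt19 and Epcam, among 324 genes called in all. Leaving out any other mouse of that fit left 7 to 9 members. In a fit of all 24 arrays, whose spread takes in mouse 60, Csn3 alone was called. Markers of lymph node, which the inguinal pad holds, were higher in the same comparison, 7 of 9 tested with 0 lower, and their part in these genes was not tested.

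In wild-type males 1 of the 10 members was called between depots, against 1429 of 12944 genes (11.0%), and it was Krt19, lower in subcutaneous tissue. The differences of the other luminal keratins were -0.89 (SE 0.35, adjusted p = 0.104) for Krt8 and -0.93 (SE 0.33, adjusted p = 0.0766) for Krt18, while Csn3 differed by 1.14 (SE 0.42, adjusted p = 0.087). Within the 6 males of both genotypes the subcutaneous minus visceral difference of Krt8 lay between -1.93 and -0.02, and in the 5 females other than mouse 60 between 2.34 and 3.69. For Csn3 it was above 0 in each male, from 0.63 to 2.06. Without wild-type male 161, whose subcutaneous array also stood out in Krt14, the count rose to 4 members, Krt8, Krt18, Krt19 and Epcam, all lower in subcutaneous tissue. The count of all genes called did not rise with any 1 mouse left out, at 63 to 1384.

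In aP2-Tagln2 females 0 of the 10 members and 0 of 13095 genes (0%) were called between depots with limma when mouse 60 was included, and 0 members and 233 genes had an unadjusted p under 0.05. In that mouse 9 of the 10 members were lower under the subcutaneous than under the visceral label, from -1.17 for Cldn3 to -6.39 for Csn3, with Wap at 0.26. Without it the fit had 2 females, and 7 members passed the filter, of which 5 were called, against 103 of 12873 genes (0.800%). Krt18 then differed by 4.17 (SE 0.46, adjusted p = 0.00329), Krt19 by 3.41 (SE 0.44, adjusted p = 0.00671) and Epcam by 4.44 (SE 0.65, adjusted p = 0.0111). Krt8 differed by 3.13 (SE 0.47, adjusted p = 0.0132) and Krt14 by 1.37 (SE 0.26, adjusted p = 0.0357). Csn3, Krt5 and Elf5 did not pass the filter there, with differences of 5.49, 2.10 and 3.06. Without mouse 60 and without the filter, a setting added after the data were seen, these 3 were called as well, 8 of 10 in all, against 194 of 19494 genes (0.995%).

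**Figure D3:**
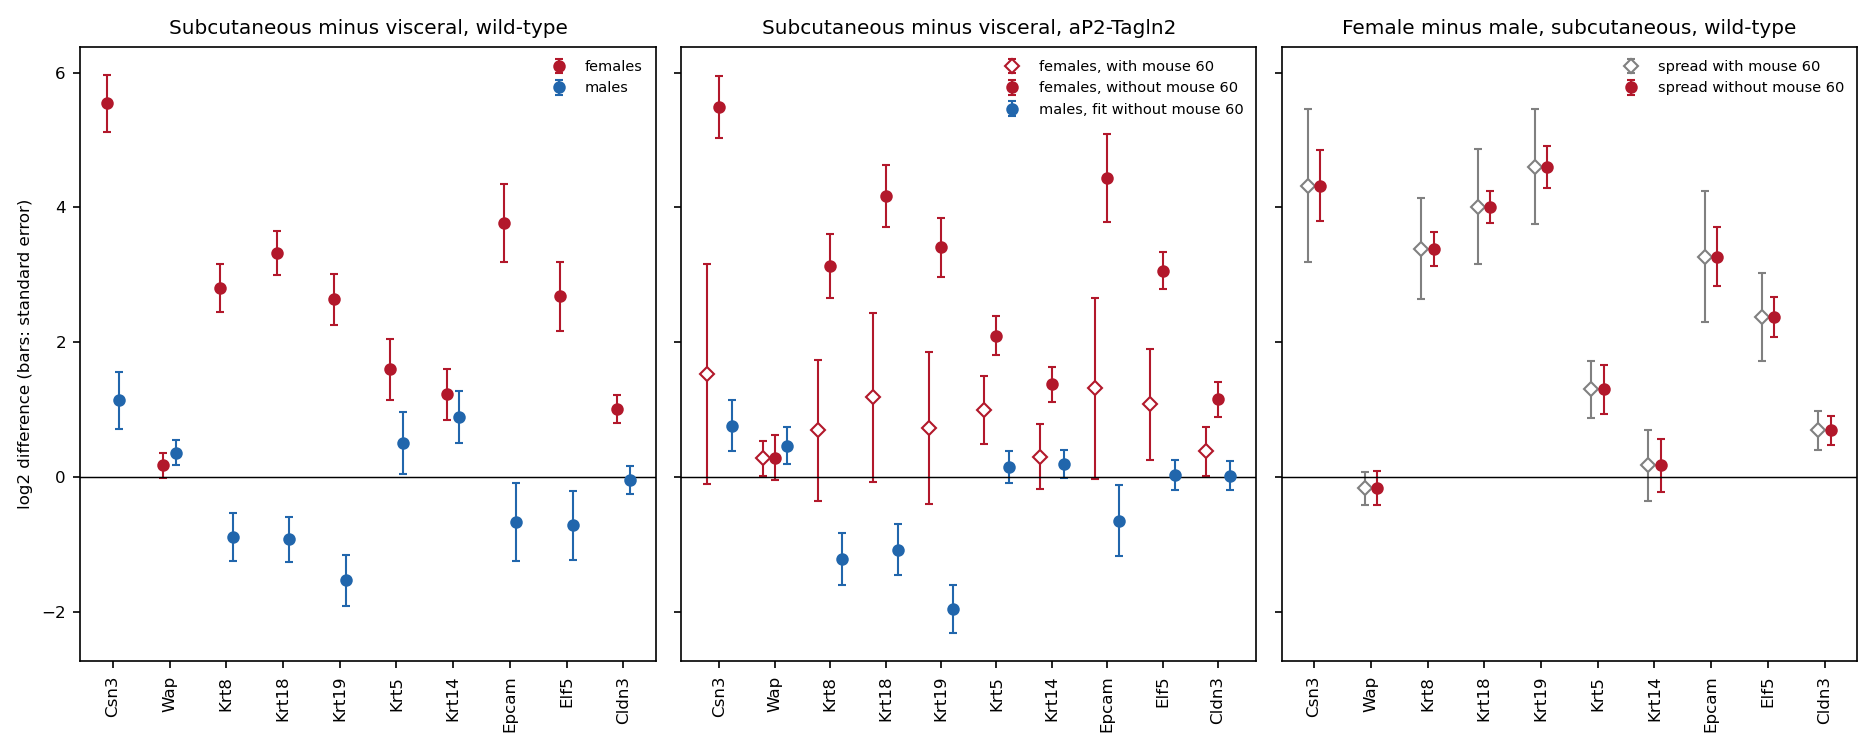
Log2 differences of the 10 genes with standard errors: subcutaneous minus visceral in wild-type mice, the same in aP2-Tagln2 mice with and without mouse 60, and female minus male in wild-type subcutaneous tissue with the spread estimated with and without mouse 60. For Csn3 the depot difference was 5.54 in wild-type females, 1.53 in aP2-Tagln2 females with mouse 60 and 5.49 without it.

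In aP2-Tagln2 males 0 members were called between depots, against 1480 of 13095 genes (11.3%), and 0 members had an unadjusted p under 0.05. Mouse 60 enters that fit through the shared estimate of the spread. Without it 1 member was called, against 1876 of 12873 genes (14.6%): Krt19 was lower in subcutaneous tissue, at -1.96 (SE 0.36, adjusted p = 0.00997). Krt8 was at -1.22 (SE 0.39, adjusted p = 0.0568) and Krt18 at -1.08 (SE 0.38, adjusted p = 0.0748).

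Between the sexes, in wild-type subcutaneous tissue, 1 of the 10 members was called, against 57 of 13101 genes (0.435%). Krt19 was higher in females by 4.60 (SE 0.85, adjusted p = 0.0367), and this call was lost when any 1 of mice 106, 135, 140, 159, 161, 162, 169 or 170 was left out. The differences of other members were 4.32 for Csn3 (SE 1.14, adjusted p = 0.147), 4.01 for Krt18 (SE 0.86, adjusted p = 0.0717) and 3.39 for Krt8 (SE 0.75, adjusted p = 0.0865). Mouse 60 is in neither group compared, but its group adds to the spread that the fit shares. Without it the differences were the same and 6 members were called, against 185 of 12976 genes (1.43%). They were Csn3 (SE 0.53, adjusted p = 0.000959), Krt8 (SE 0.25, adjusted p = 2.32e-05), Krt18 (SE 0.24, adjusted p = 5.46e-06), Krt19 (SE 0.31, adjusted p = 1.34e-05), Epcam (SE 0.44, adjusted p = 0.00195) and Elf5 (SE 0.29, adjusted p = 0.00104). Krt5, Krt14, Cldn3 and Wap were not called, with differences of 1.30, 0.17, 0.69 and -0.17. Krt18, Krt19 and Elf5 lay above the filter level in 0 of 3 wild-type male subcutaneous arrays, and Csn3 in 1. These genes were thus tested mainly through female arrays. Without mouse 60 and without the filter, a setting added after the data were seen, 6 members were called, against 184 of 19494 genes (0.944%). The mean over the 10 measured lymph node genes moved with sex in the same arrays, at 6.61 to 7.71 in wild-type females and 4.85 to 5.52 in wild-type males. Of the 9 tested, 0 were called with mouse 60 in the fit and 1 without it, and their part in the members' differences was not tested.

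In aP2-Tagln2 subcutaneous tissue 0 members were called between the sexes with limma, against 37 of 13101 genes (0.282%), and 7 members had an unadjusted p under 0.05. Without mouse 60 the count was 7 of 10, against 134 of 12976 genes (1.03%). Csn3 was then higher in females by 4.88 (SE 0.59, adjusted p = 0.00122), Krt19 by 5.01 (SE 0.35, adjusted p = 2.63e-05) and Krt5 by 2.02 (SE 0.41, adjusted p = 0.0367). Krt8, Krt18, Epcam and Elf5 were higher as well, by 3.70, 4.37, 3.92 and 2.91. Csn3, Krt5, Krt18, Krt19, Epcam and Elf5 lay above the filter level in 0 of 3 aP2-Tagln2 male subcutaneous arrays. Without mouse 60 and without the filter 7 members were called, against 138 of 19494 genes (0.708%). The lymph node mean overlapped between the sexes here, reaching 7.15 in females and 7.91 in males. Of the 13 other luminal genes tested without mouse 60, 9 were higher in wild-type and 10 in aP2-Tagln2 females, against 1.43% and 1.03% of all genes called. Of the other basal genes 2 were higher in subcutaneous tissue of wild-type females than of wild-type males, Oxtr by 2.08 and Col17a1 by 1.08. Between the depots of wild-type females, as given above, Oxtr was lower in subcutaneous tissue.

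The depot difference was set against sex directly, as the female minus the male depot difference averaged over genotypes in a fit of all 24 arrays. With mouse 60 included 0 of the 10 members were called with limma, against 76 of 13688 genes (0.555%), and 6 members had an unadjusted p under 0.05. Without it 7 were called, against 289 of 13603 genes (2.12%). Krt19 had an interaction of 4.77 (SE 0.43, adjusted p = 1.89e-06), Epcam 4.76 (SE 0.66, adjusted p = 0.000245), Krt18 4.75 (SE 0.40, adjusted p = 1.12e-06) and Csn3 4.57 (SE 0.47, adjusted p = 9.44e-06). Krt8 had 4.02 (SE 0.43, adjusted p = 1.08e-05), Elf5 3.21 (SE 0.47, adjusted p = 0.000493) and Cldn3 1.09 (SE 0.22, adjusted p = 0.0101). The basal keratins were not called, at 1.52 for Krt5 (adjusted p = 0.0762) and 0.76 for Krt14 (adjusted p = 0.302), nor was Wap at -0.18 (adjusted p = 0.738). Among the other lists 11 of 13 luminal genes, 2 of 3 milk genes, 0 of 9 basal genes and 0 epidermal genes had a positive interaction past the test. Without mouse 60 and without the filter 7 members were called, against 274 of 19494 genes (1.41%).

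Genotype moved none of the members past the test, and none had an unadjusted p under 0.05 in any of the genotype comparisons. In female subcutaneous tissue 0 of 10 members were called with limma, against 1 of 13101 genes (0.00763%). Csn3 was lower in aP2-Tagln2 females by a log2 difference of -1.86 (SE 1.14) with mouse 60 and by -0.04 (SE 0.59) without it, and without it the differences of the other members lay between 0.10 and 0.36. In male subcutaneous tissue 0 members and 0 of 13101 genes (0%) were called, with 1700 genes under an unadjusted p of 0.05, and Csn3 was at -0.60 (adjusted p = 0.905) and Krt14 at -0.77 (adjusted p = 0.58). The interaction of genotype with sex in subcutaneous tissue gave 0 members and 0 genes (0%), with 1613 genes under an unadjusted p of 0.05, and the interaction of Csn3 was -1.27 (SE 1.61) with mouse 60 and 0.56 (SE 0.79) without it. In visceral tissue, where 7 members passed the filter, 0 members and 0 of 12706 genes (0%) were called in females, with 408 genes under an unadjusted p of 0.05. Csn3, which did not pass the filter there, was higher in aP2-Tagln2 females by 2.15 (SE 1.23) with mouse 60 and by 0.01 (SE 0.26) without it, and without that mouse 0 members were called in any genotype comparison. In visceral tissue of males 0 members and 0 genes (0%) were called, with 436 genes under an unadjusted p of 0.05. The genotype comparisons share the wild-type and transgenic arrays with the sex and depot comparisons above. A p above the threshold does not show that the genotypes were alike.

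Single male arrays departed from the pattern, and the genes named for them below were chosen after their values were seen. The subcutaneous tissue of wild-type male 161 had Krt14 at 6.88, Krt5 at 5.02 and Epcam at 5.96, with Csn3 at 3.71 and Krt8 at 5.19 among the other males. The same array had Olah, a fatty acid thioesterase gene of the lactating gland and of sebaceous glands, at 8.41 and Krt79, a keratin of the hair follicle and sebaceous duct, at 7.76. The visceral tissue of males 158, 159 and 162 had Epcam at 6.46, 6.18 and 6.17, against 3.75 to 4.78 in males 106, 130 and 161. Krt8 ran the same way in those arrays, at 7.26, 6.81 and 6.43 against 5.21 to 6.09, and so did Prom1, a membrane protein gene of many epithelia, at 7.91, 6.94 and 6.64. The mean over the 6 measured epididymal genes was 4.05, 4.25 and 3.71 in visceral tissue of males 158, 159 and 162. It was 3.89, 3.50 and 3.53 in that of males 106, 130 and 161. It was also 4.20 in the subcutaneous tissue of mouse 158, the array with the highest filter level, 5.31. The epididymal genes did not pass the filter in the comparisons, so their mean cannot show whether epididymal RNA was present. The visceral tissue of mouse 162 also had Elf5 at 6.50, which the other male visceral arrays, at 3.81 to 4.13, did not share, while its Csn3 was at 3.36. The part of epididymal, sebaceous or other epithelium in these arrays was not tested.

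**Figure D4:**
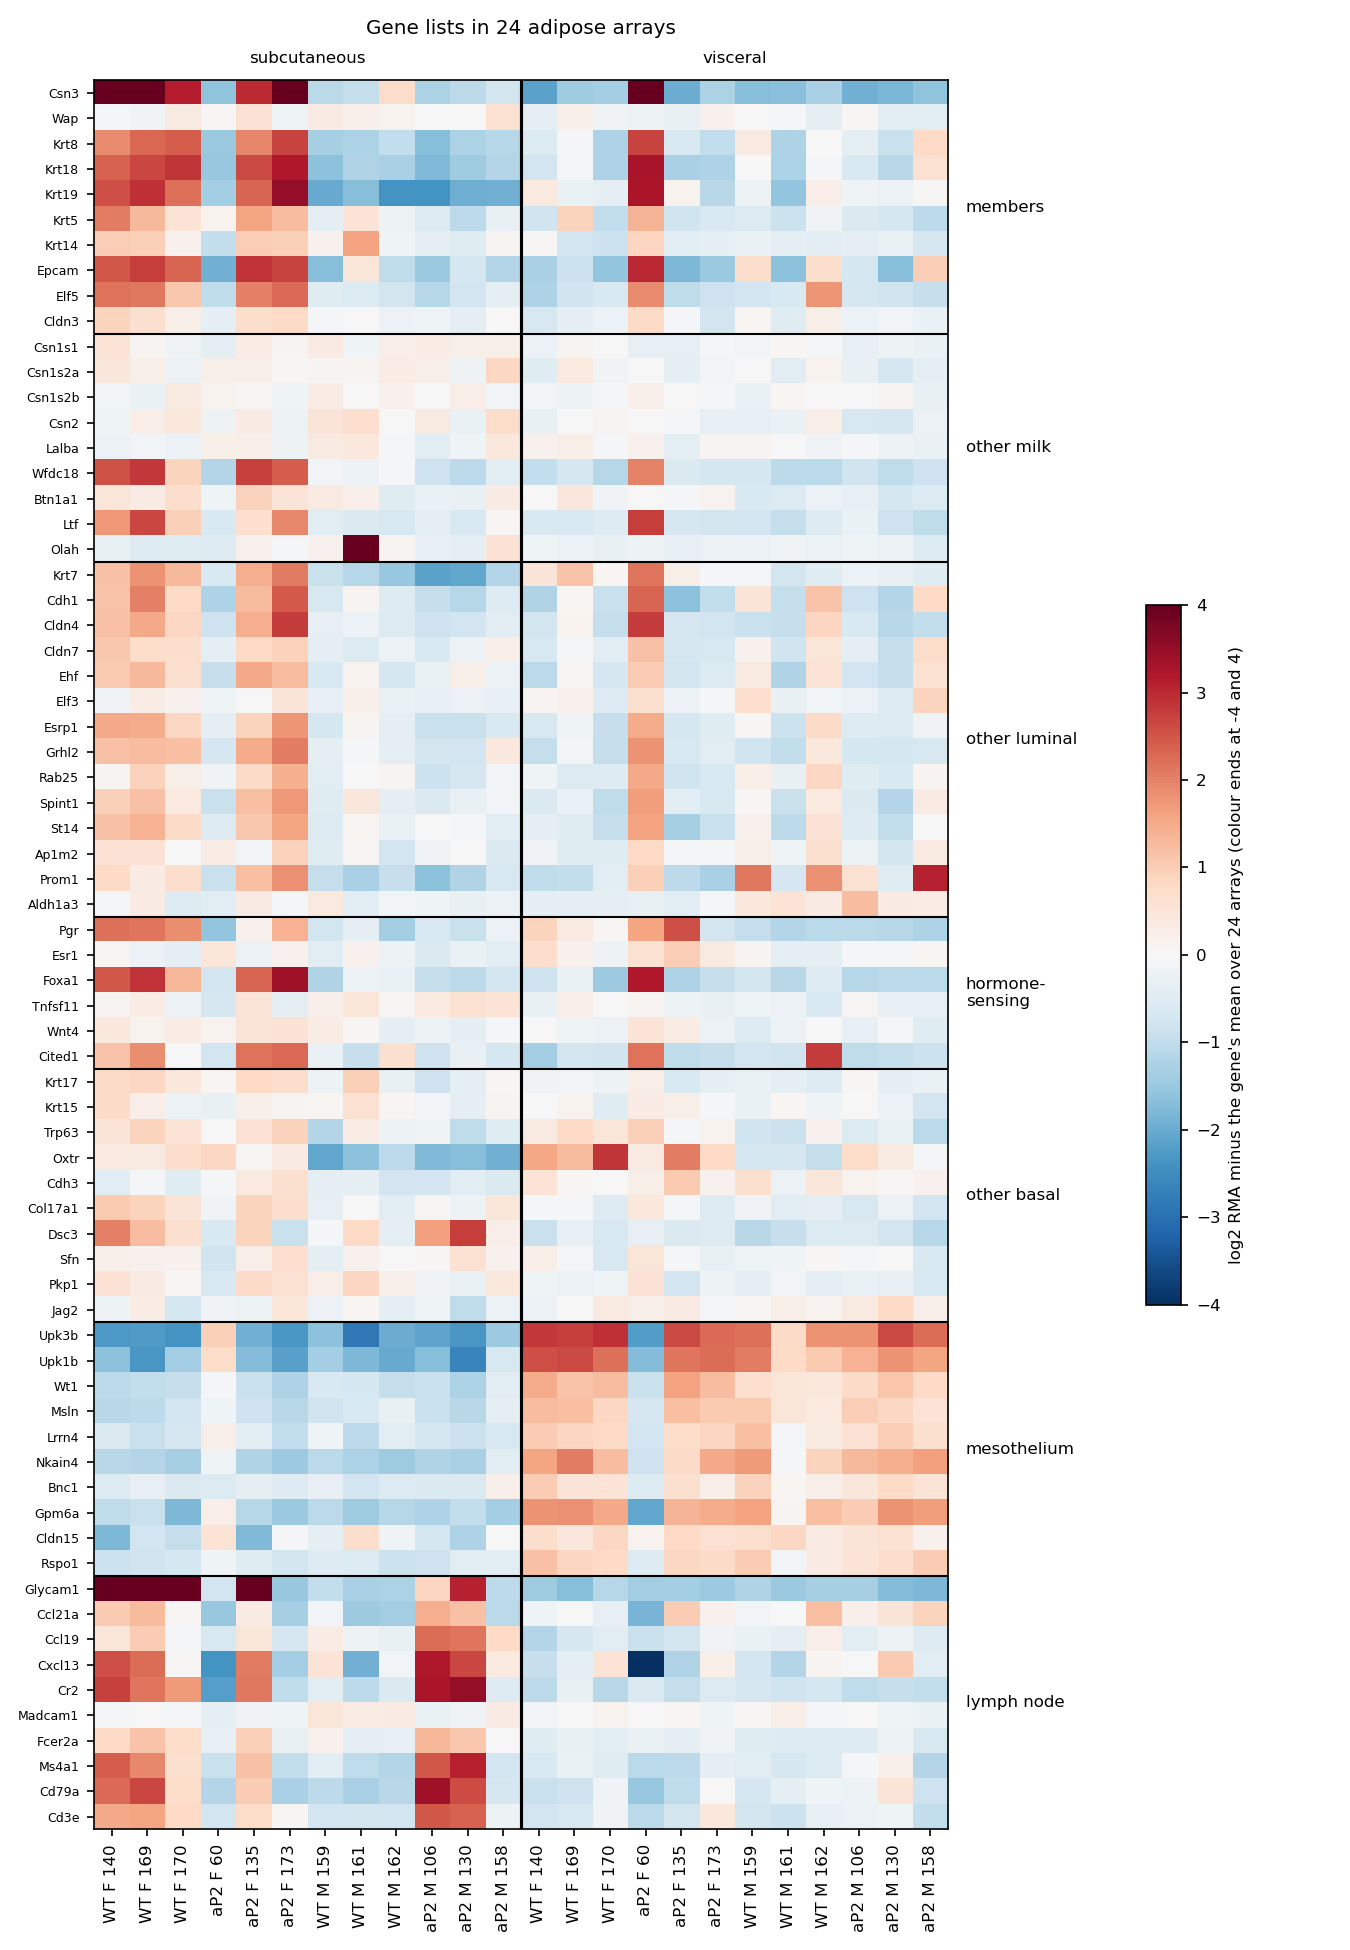
Log2 intensity of the members and of the lists of other milk, luminal, hormone-sensing, basal, mesothelial and lymph node genes in the 24 arrays, each gene centred on its mean over the arrays, with the colour scale ending at 4 either side. The 5 female subcutaneous arrays other than mouse 60 and the array of mouse 60 labelled visceral, where Csn3 was 9.44, share high luminal genes and low mesothelial genes, and the array of mouse 60 labelled subcutaneous shows neither.

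The members were also described by their likeness over arrays, as Pearson correlations over 24 arrays that share groups and mice, among 13184 genes above the filter level in at least 3 arrays. The genes most like Csn3 were Dmbt1 (r = 0.976), which encodes a mucosal scavenger glycoprotein, Foxa1 (r = 0.970), Ido1 (r = 0.967), a tryptophan-degrading enzyme gene, Tfap2b (r = 0.960), an AP-2 factor gene, and Atp6v1b1 (r = 0.958), a proton pump subunit gene. For the mean of Krt8, Krt18 and Krt19 they were Fgfr2 (r = 0.949), a fibroblast growth factor receptor gene, Slc12a2 (r = 0.943), a chloride cotransporter gene, Slc7a2 (r = 0.939), an amino acid transporter gene, Capsl (r = 0.937) and Tspan8 (r = 0.926). For the mean of Krt5 and Krt14 they were Serpinb5 (r = 0.920), the maspin gene of basal mammary cells, Wfdc18 (r = 0.904), Atp6v1b1 (r = 0.903), Foxa1 (r = 0.897) and Tlcd4 (r = 0.896). Foxa1 and Atp6v1b1 were thus among the 5 nearest of both Csn3 and the basal mean, and neither was among those of the luminal mean. Over the 22 arrays without mouse 60 the correlations of the same 5 genes lay between 0.949 and 0.971 for Csn3, between 0.920 and 0.948 for the luminal mean and between 0.883 and 0.912 for the basal mean. Among the members themselves Csn3 correlated with Krt18 at 0.896 and with Krt5 at 0.847, Krt5 with Krt14 at 0.726, and Wap with the others between -0.20 and 0.28.

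**Figure D5:**
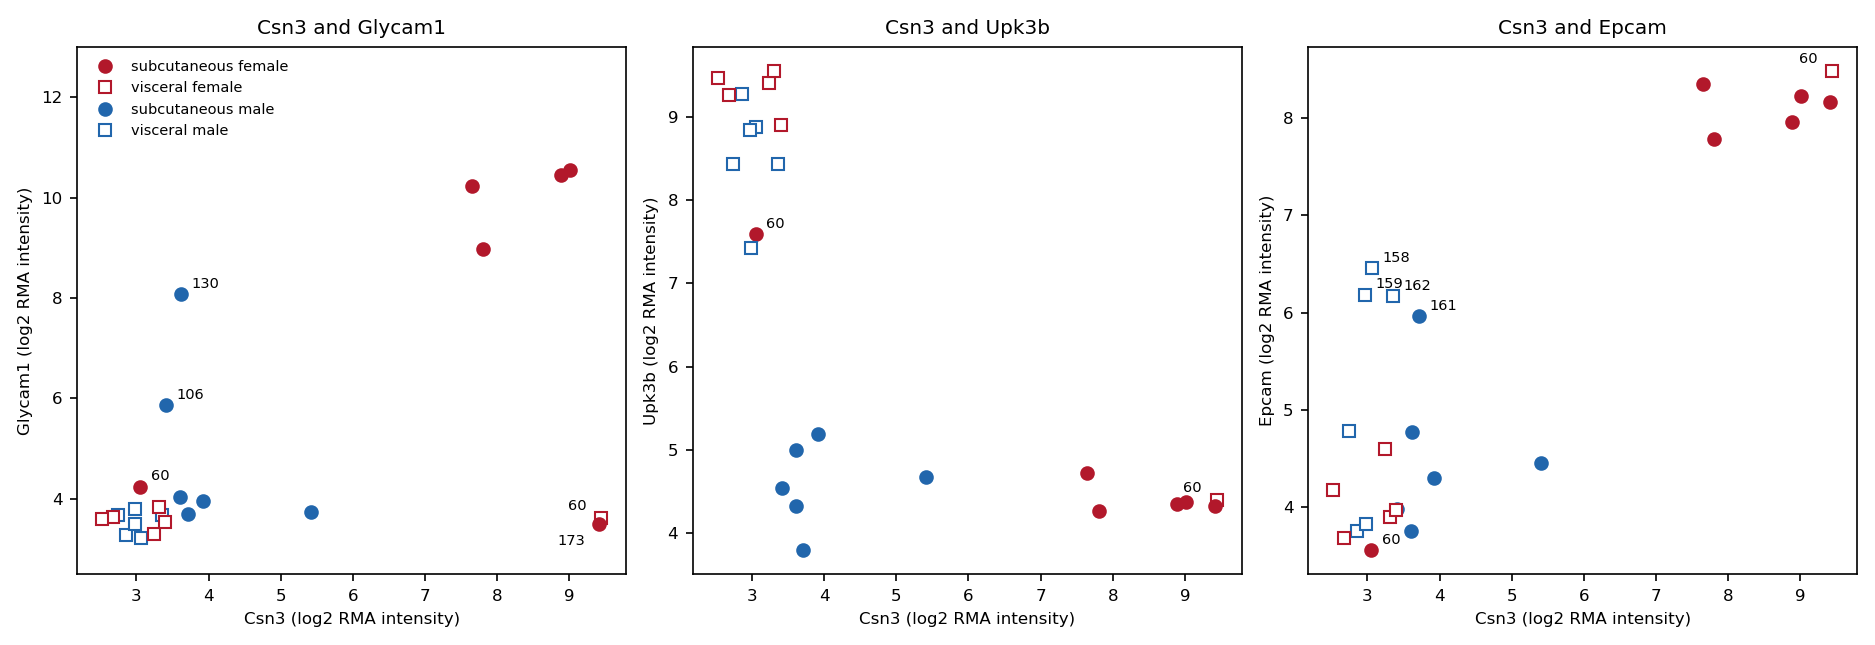
Csn3 (horizontal axis, log2 intensity) against Glycam1, Upk3b and Epcam (vertical axes, log2 intensity) over 24 arrays, with points by sex and depot. In aP2-Tagln2 female 173 Csn3 was 9.41 with Glycam1 at 3.49, and the array of mouse 60 labelled visceral had Csn3 at 9.44 with Upk3b at 4.39 and Epcam at 8.49.

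Glycam1, a mucin gene made both by the lactating gland and by the high endothelial vessels of lymph nodes, did not track Csn3 in every array. In the subcutaneous tissue of females 140, 169, 170 and 135 it was at 10.44, 10.55, 8.98 and 10.22, with Csn3 at 8.89, 9.01, 7.80 and 7.65. In female 173 Glycam1 was at 3.49 while Csn3 was at 9.41, and in the array of mouse 60 labelled visceral it was at 3.61 while Csn3 was at 9.44. In males 106 and 130 Glycam1 was at 5.86 and 8.07 in subcutaneous tissue with Csn3 at 3.41 and 3.61. High Csn3 was therefore measured in arrays both with and without high Glycam1.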

How the data were processed

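Per the submitters' processing notes, the authors used RMA and limma, with no versions given, and the deposited table holds log2 intensities. Its log base is not stated, and the values, 1.68 to 13.08, lie where log2 values lie. Genome build and annotation are not given in the sources used here. Of 22142 probe sets 19527 name 1 symbol and 2615 none or several; for 33 of the 19494 genes the probe set with the highest mean was used. All 24 columns were placed by their labels, with 0 left over. Arrays have no read depth, and their number limits the precision.

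With limma 3.58.1 under R 4.3.3 (lmFit, eBayes), 1 mean per group was fitted to genes that passed the 40th percentile of 3 or more arrays, with p-values adjusted over all genes tested. The 12 comparisons used the 12 arrays of a depot (sex, genotype), the 12 of a genotype (depot) or all 24 (sex by depot). The script was tested on simulated data. Alternatives changed the filter, normalization, centring, probe sets, variance model, samples and replicate block, or left out mice. Same-numbered arrays come from the same mouse, yet their deviations from the group means correlated between -0.24 and 0.21, above 0.1 in 5 of 12 mice.

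The members and the lists of other cell types were chosen with earlier results of these data known. From each list the text names at most 4 genes, by highest mean in female subcutaneous arrays or lowest p between depots in wild-type females, unless the text says otherwise. The likeness rule names the 5 genes of highest correlation, with predicted genes left out. Promoter sequences are from RefSeq, GRCm38.p6.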

Additional observations from a re-analysis of the deposited data

Results flagged for a closer look

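The depot difference differed between the sexes in 7 of the 10 genes once mouse 60 was left out, by the limma test of the interaction itself. In that fit 289 of 13603 genes (2.12%) were called. The female minus male interactions were 4.57 for Csn3, 4.02 for Krt8, 4.75 for Krt18, 4.77 for Krt19, 4.76 for Epcam, 3.21 for Elf5 and 1.09 for Cldn3. With mouse 60 included 0 of these passed the threshold, against 76 of 13688 genes (0.555%). Then 6 of the 10 members had an unadjusted p under 0.05.

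Mouse 60 lay apart from the other 5 females in the subcutaneous minus visceral difference of 7 genes, by the gap to its nearest neighbour over the range of the 6 mice. Its differences were -6.39 for Csn3, -1.84 for Krt14, -4.19 for Krt8, -4.80 for Krt18, -4.62 for Krt19, -4.93 for Epcam and -2.90 for Elf5. Wild-type male 162 lay apart from the other 5 males by the same measure, at 2.06 for Csn3 and -2.49 for Elf5. Chance alone marks about 1 in 20 such sets, and the genes share arrays, so their marks are not separate.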

How the results depend on the processing

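Counts of genes and of members past the test, under settings that moved them by over 1.5 times, were as follows. For sex in wild-type subcutaneous tissue, from 57 genes and 1 member, the counts were 628 genes and 3 members with the replicate block in all 24 arrays, 617 and 3 in that fit without a block, 254 genes and 0 members without mice 158 and 159, 184 genes and 6 members without mouse 60 and the filter, and 0 members with the trend and robust options. For sex in aP2-Tagln2 subcutaneous tissue, from 37 genes and 0 members, they were 246 and 1 with the block, 247 and 1 without it, 554 genes without mice 158 and 159, and 138 and 7 without mouse 60 and the filter. For depot in wild-type females, from 1824 and 9, they were 251 and 1 with the block and 312 and 1 without it. With the block in the samples of the fit alone, a setting added after the data were seen, they were 1764 and 8.

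For depot in wild-type males, from 1429 and 1, they were 908 genes after a second quantile normalization, 90 and 0 with the block, 104 and 0 without it, and 63 and 0 without mice 158 and 159. For depot in aP2-Tagln2 females, from 0 and 0, they were 194 and 8 without mouse 60 and the filter, and 106 and 5 with the block without mouse 60. For depot in aP2-Tagln2 males, from 1480 and 0, they were 601 genes after quantile normalization, 3524 with the block, 3663 without it, 940 without mice 158 and 159, and 1 member without mouse 60 either with no filter or with the block. For the sex by depot interaction, from 76 and 0, they were 42 genes after quantile normalization, 5 without mice 158 and 159, 274 and 7 without mouse 60 and the filter, and 289 and 7 with the block without mouse 60. For genotype in subcutaneous tissue of males, from 0 genes, they were 302 with the block, 325 without it and 997 without mice 158 and 159, and for the genotype by sex interaction in subcutaneous tissue 402, 402 and 976. Both settings that leave out mouse 60 with a further change were added after the data were seen.

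Leaving out 1 mouse at a time gave 18 to 982 genes and 0 to 6 members for sex in wild-type and 15 to 1019 and 0 to 7 in aP2-Tagln2 subcutaneous tissue. For depot it gave 324 to 1961 and 5 to 9 in wild-type females, 63 to 1384 and 0 to 4 in wild-type males, 0 to 103 and 0 to 5 in aP2-Tagln2 females, and 1 to 2689 and 0 to 1 in aP2-Tagln2 males. It gave 10 to 588 and 0 to 7 for the sex by depot interaction. For genotype it gave 1 to 2 genes in female and 0 to 1419 in male subcutaneous tissue, 0 to 1247 for genotype by sex, 0 to 2 in female and 0 to 1 in male visceral tissue. Depot differences in aP2-Tagln2 females turned negative without mouse 135 and without mouse 173, where mouse 60 is 1 of 2, and leaving out mouse 60 gave the highest value: Epcam -0.37, -0.13 and 4.44, Krt14 -0.25, -0.21 and 1.37, Krt18 -0.19, -0.44 and 4.17, Krt19 -0.0019, -1.21 and 3.41, and Krt8 -0.25, -0.80 and 3.13. Where a setting moved a count for another reason than fewer arrays or genes, the cause was not tested. Values under the filter level, such as most of those of Csn3 outside female subcutaneous tissue, may bound a difference by background, which was not measured.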

Other observations

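Of the 6 measured hormone-sensing genes of luminal cells, 2 differed in their depot difference by sex once mouse 60 was left out, by the limma test, where 289 of 13603 genes (2.12%) were called. The interaction was 3.32 for Foxa1 (adjusted p = 3.04e-05) and 2.70 for Cited1, a transcription coregulator gene (adjusted p = 0.0465). Pgr at 0.35, Wnt4 at 0.30, Esr1 at -0.38 and Tnfsf11 at -0.45 did not pass. In mouse 60 Foxa1 was at 3.92 under the subcutaneous and 7.92 under the visceral label, against 6.01 to 8.08 in subcutaneous and 3.24 to 4.42 in visceral tissue of the other 5 females.

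The visceral tissue of wild-type male 162, where Elf5 was at 6.50, also had Cited1 at 7.54 and the tight-junction gene Cldn4 at 6.33, with the smooth muscle genes Cnn1 at 10.48 and Actg2 at 10.27. Cldn4, Cnn1 and Actg2 were named after their values were seen.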
